A study of Mus musculus with 6 samples.

Results

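RNA-Seq levels of 47 cell cycle genes were compared between control and *Rbfox2* mutant craniofacial tissue. The genes were picked by name from the 38553 genes in the expression table, and fall into 24 genes of G1/S and DNA replication and 23 genes of mitosis. All 47 names were found. The tissue was microdissected from mouse embryos at E12.5, with 3 controls (*Rbfox2* flox/flox, with no Cre named) and 3 mutants (*Pax3*Cre/+ with *Rbfox2* flox/flox), so by these labels both floxed alleles were shared by all 6 samples and Cre was a feature of the mutants alone. By the same labels, loss of *Rbfox2* cannot be told apart from Cre itself or from the altered *Pax3* allele that carries it. The methods allow other control genotypes in the study as a whole, some with Cre. *Rbfox2* encodes an RNA-binding splicing factor. *Pax3*Cre is a knock-in at *Pax3* that is active in the neural crest and also in somite-derived cells, and the microdissected tissue keeps cells outside these lineages. In such bulk tissue fewer cycling cells and less cell cycle RNA per cell cannot be told apart.

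The cell cycle runs through a growth phase (G1), DNA synthesis (S), a second gap (G2) and mitosis (M). D-type cyclins with CDK4 or CDK6, and then cyclin E with CDK2, inactivate the retinoblastoma proteins and free E2F factors, which switch on the genes for DNA replication. Mitotic genes are transcribed later, in G2 and M, many of them through a CCAAT box bound by NF-Y and a cell cycle homology region (CHR) bound by the DREAM and MuvB complexes. The facial mesenchyme, which is largely derived from the neural crest, proliferates strongly while the palate and jaws form.

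The promoters of both gene groups are shown first, because they can be compared between the phases without any expression value. RefSeq promoter windows (GRCm38.p6, 250 bases before to 50 after the annotated start) were found for 38 of the 47 genes, 18 of replication and 20 of mitosis. Words were searched on both strands, and words of different motifs may overlap at their ends. The CHR word was TTTGAA, the NF-Y word was CCAAT, and the E2F words were TTTCCCGC, TTTCGCGC, TTTGCCGC and TTTGGCGC. A gene was counted if any of its windows held the word. The CHR word stood in 16 of 20 mitotic genes (80.0%) and in 2 of 18 replication genes (11.1%). It stood in 20.2% of all 27025 genes with a promoter and in 13.7% of the expressed genes tested below. The CCAAT word stood in 18 of 20 mitotic genes (90.0%) and in 11 of 18 replication genes (61.1%). Its share was 41.1% of all genes with a promoter and 44.1% of the expressed genes. The CHR word and the CCAAT word occurred together in 15 of 20 mitotic genes (75.0%), in 7.97% of all genes with a promoter and in 5.94% of the expressed genes. An E2F word stood in 7 of 18 replication genes (38.9%) and in 1 of 20 mitotic genes. Its share was 2.6% of all genes with a promoter and 5.14% of the expressed genes. A match is a description of the letters only, and no binding was measured.

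**Figure D1:**
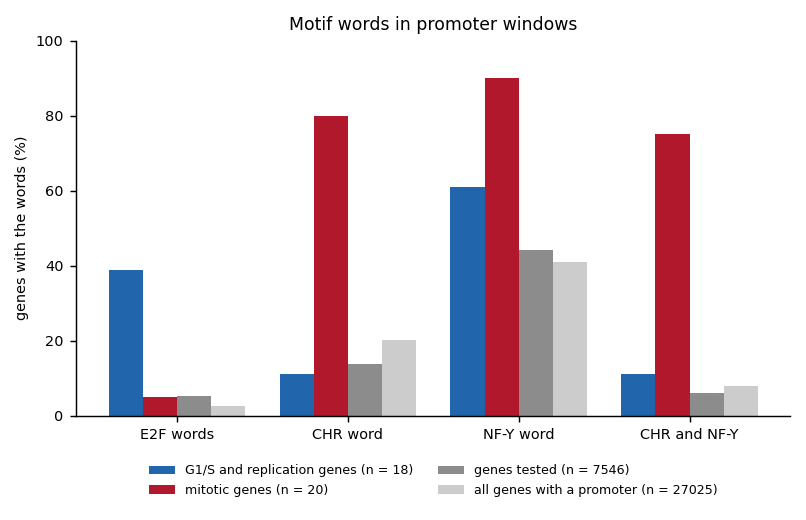
Bars give the percentage of genes whose promoter window holds each kind of motif word, for replication genes (blue, 18 genes), mitotic genes (red, 20 genes), the expressed genes tested (dark grey) and all genes with a promoter in the table (light grey). The CHR word reached 80.0% in the mitotic genes and 11.1% in the replication genes, and E2F words 38.9% in the replication genes.

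The following stretches are the 160 bases before the start of 5 mitotic genes, chosen because a CHR word and a CCAAT word both fall inside the stretch and because the expression values of these genes are described below. Capitals mark the CHR and CCAAT words on either strand, and in Cdk1 also an E2F word, and each is printed 5′ to 3′ on the strand of the gene.
Depdc1a, chr3:159495273-159495432, plus strand: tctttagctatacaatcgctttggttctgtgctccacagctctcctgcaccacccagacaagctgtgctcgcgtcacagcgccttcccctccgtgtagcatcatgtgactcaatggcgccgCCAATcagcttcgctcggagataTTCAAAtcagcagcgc
Cdc20, chr4:118437344-118437503, minus strand: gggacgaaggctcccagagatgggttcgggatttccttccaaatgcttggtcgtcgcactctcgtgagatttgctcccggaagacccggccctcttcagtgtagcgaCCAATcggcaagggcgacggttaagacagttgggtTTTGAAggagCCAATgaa
Cdk1, chr10:69352913-69353072, minus strand: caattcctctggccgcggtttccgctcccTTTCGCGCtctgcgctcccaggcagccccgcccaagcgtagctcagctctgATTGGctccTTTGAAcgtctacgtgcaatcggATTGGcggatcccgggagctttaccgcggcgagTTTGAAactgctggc
Kif11, chr19:37376222-37376381, plus strand: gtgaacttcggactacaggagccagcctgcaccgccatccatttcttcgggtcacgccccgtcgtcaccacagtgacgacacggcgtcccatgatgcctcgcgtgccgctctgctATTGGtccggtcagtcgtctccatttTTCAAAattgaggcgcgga
Top2a, chr11:99024190-99024349, minus strand: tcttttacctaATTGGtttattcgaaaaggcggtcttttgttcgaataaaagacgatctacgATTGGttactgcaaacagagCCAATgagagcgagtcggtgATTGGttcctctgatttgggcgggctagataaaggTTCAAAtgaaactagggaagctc

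The corresponding 160 bases of 3 replication genes with E2F words are shown for contrast. Capitals mark the E2F words, which overlap in Mcm5 and Mcm6, and the CCAAT words, and none of the 3 stretches holds the CHR word.
Mcm5, chr8:75109349-75109508, plus strand: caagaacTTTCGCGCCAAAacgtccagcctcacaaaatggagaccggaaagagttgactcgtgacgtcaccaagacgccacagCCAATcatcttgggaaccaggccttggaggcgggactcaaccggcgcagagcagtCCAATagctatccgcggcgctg
Mcm6, chr1:128359706-128359865, minus strand: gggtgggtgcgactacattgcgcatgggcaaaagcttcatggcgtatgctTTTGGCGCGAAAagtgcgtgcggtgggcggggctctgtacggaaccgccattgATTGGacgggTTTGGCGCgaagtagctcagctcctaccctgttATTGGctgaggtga
Cdk2, chr10:128705052-128705211, minus strand: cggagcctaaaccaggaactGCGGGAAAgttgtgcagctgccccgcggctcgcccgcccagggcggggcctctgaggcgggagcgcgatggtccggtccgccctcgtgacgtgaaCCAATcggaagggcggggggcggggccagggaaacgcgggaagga

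Levels are given as FPKM, fragments scaled by gene length and by all mapped fragments, which can be compared between genes. The FPKM values of all genes summed to between 528123 and 590174 per sample. The sums were lowest in the first replicates (528123 in mutant 1 and 553686 in control 1) and highest in mutant 3. The reads behind a single value are unknown because the files hold no counts. *Rbfox2* itself was at 58.4, 65.0 and 61.3 FPKM in controls 1, 2 and 3 and at 38.1, 36.3 and 34.3 in mutants 1, 2 and 3, so its groups did not overlap. Its log2 difference was -0.75 with an adjusted p of 0.138 (limma), so the adjusted threshold of 0.05 was not passed even by the deleted gene. Y-linked genes were expressed only in mutants 1 and 2, where 4 of them summed to 57.7 and 55.5 FPKM, against at most 0.217 in the other 4 samples. Of marker lists for cell types, cranial mesenchyme was at 592 to 629 summed FPKM in controls and 511 to 665 in mutants. Of its 12 markers, 3 were higher in the mutant mean. The sum of the neuronal markers did not overlap, at 920 to 1008 in controls and 1080 to 1159 in mutants. Of these markers 11 of 12 were higher in the mutant mean, all but *Nefm*, and none was at 0 in any sample. Singly, only *Tubb3*, *Stmn2*, *Elavl3* and *Dcx* had all mutant values above all control values, against 2.63% of all genes. *Tubb3* is the largest part of the sum (means of 360 FPKM in controls and 455 in mutants). Muscle markers were lower in the mutant mean in 8 of 8 cases (153 to 402 against 146 to 230 summed FPKM), and erythroid markers higher in 10 of 10 (5217 to 10564 against 7111 to 11106). In the other lists, 7 of 8 forebrain progenitor, 6 of 6 choroid plexus and 1 of 10 epithelial markers were higher in the mutant mean. So were 5 of 7 endothelial, 5 of 7 macrophage and 2 of 8 cartilage and bone markers. The part of these cell types in the comparisons below was not tested. The Y-linked genes were used as a covariate in an alternative fit given below, and their part was not otherwise tested.

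The cell cycle genes were well expressed. Their median level over all samples was 51.5 FPKM, against 20.3 for all expressed genes, with medians of 66.5 for the replication genes and 48.9 for the mitotic genes. The mean levels of single genes ran from 2.74 to 924 FPKM in the replication genes and from 15.8 to 181 in the mitotic genes. *Cdk4* was the highest at 924 FPKM on average, followed by the replication clamp *Pcna* at 195, the mitotic kinase *Cdk1* at 181 and the topoisomerase *Top2a* at 169. *Cdk6*, the other kinase partner of D cyclins, was the lowest at 2.74 FPKM (2.27 to 2.98 in the 6 samples). By these values nearly all of the cyclin D kinase RNA in this tissue was *Cdk4*. An exon of *Tspan31* overlaps *Cdk4* on the opposite strand, so its level is uncertain if counting ignored strand. *Cdk6* was the only one of the 47 genes that did not reach an FPKM above 5 in all controls or all mutants. The other 46 genes were tested among 10061 genes.

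**Figure D2:**
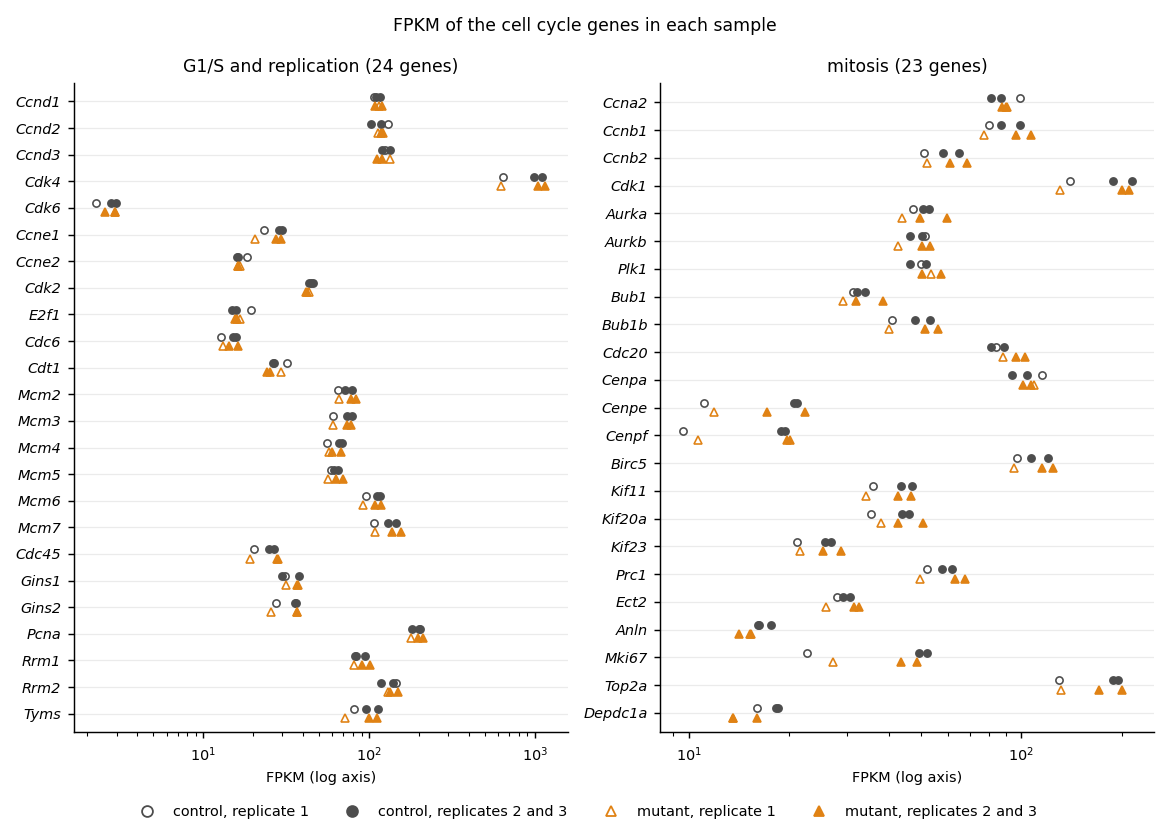
Points give the FPKM (log axis) of each replication gene (left) and mitotic gene (right) in each control (grey circles) and mutant (orange triangles), with the first replicates drawn open. Control and mutant values overlap in all genes but *Anln*, and the open symbols lie to the left of the filled ones in 29 of the 46 genes tested.

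No cell cycle gene differed between mutant and control at an adjusted p under 0.05 (limma on log2(FPKM + 1), Benjamini-Hochberg over all genes tested), as was the case for 0% of all genes. Before adjustment, 1 of 46 genes had a p under 0.05. That was *Depdc1a*, which was lower in the mutants, against 0.954% of all genes on that side. No cell cycle gene was higher at that threshold, against 0.706% of all genes. The mutant minus control difference on the log2 scale ranged from -0.27 to 0.17 over the 46 genes, with a median of 0.015 against 0.0057 for all genes, and 27 genes were higher and 19 lower. The median size of the difference, regardless of sign, was 0.040 against 0.054 for all genes. The 95% interval of the difference lay within 0.5 of 0 for 39 of the 46 genes, 22 of 23 for replication and 17 of 23 for mitosis, and for 8635 of all 10061 genes.

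The replicate numbers were also used as pairs, since control and mutant samples with the same number deviated together from their group means, mainly because the first replicates differed from the rest. With the number as a block in the fit, 1 gene was lower (*Depdc1a*) and 2 higher (*Cdc20* and *Plk1*) before adjustment, against 3.7% and 2.31% of all genes, and the smallest adjusted p of a cell cycle gene was 0.768 (limma). Mutant values lay below all control values in 1 gene, *Anln*, against 2.37% of all genes, and above them in none, against 2.63%. In 6 of 46 genes (13.0%) the mutant was the higher of the pair in all 3 replicate numbers, and in 5 (10.9%) the lower, against 13.6% and 13.1% of all genes. All these shares were near those of all genes or rest on at most 2 genes.

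**Figure D3:**
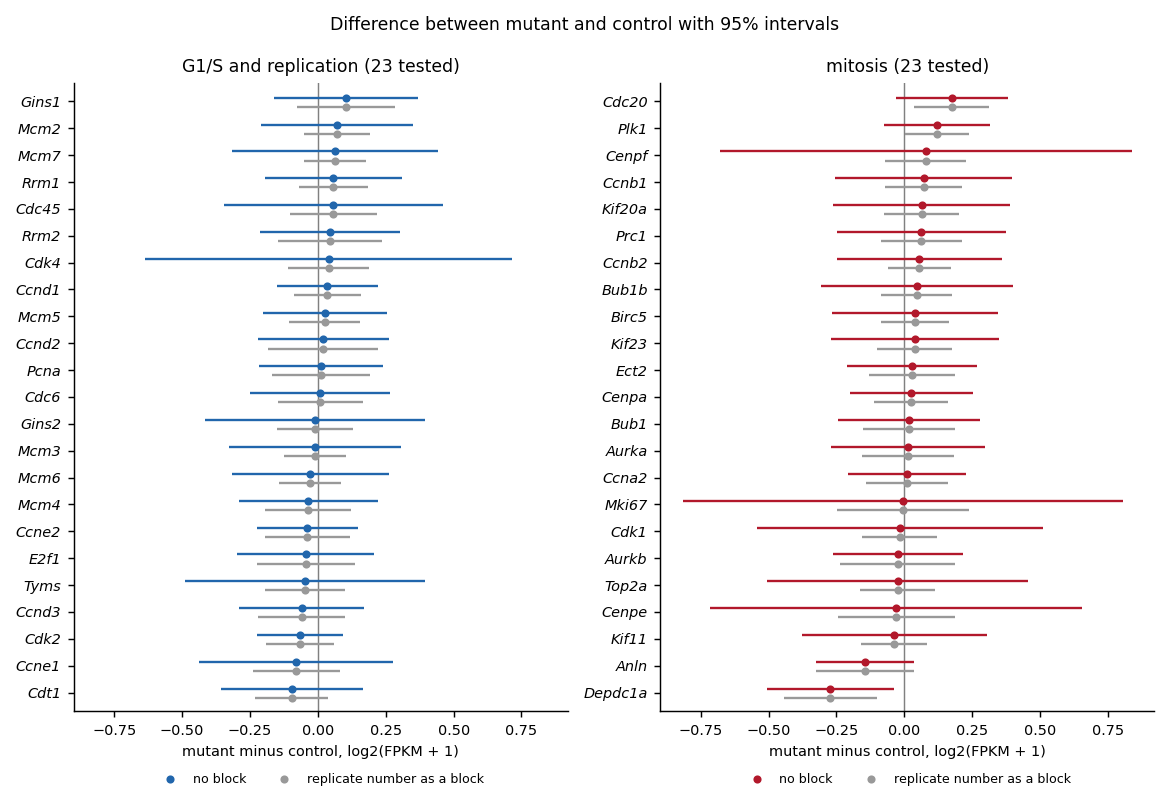
Points give the mutant minus control difference in log2(FPKM + 1) and lines its 95% interval for the 23 replication genes (blue) and 23 mitotic genes (red) tested, with the fit that uses the replicate number as a block in grey. Without the block, only the interval of *Depdc1a* (-0.51 to -0.04) leaves out 0, and the intervals of *Mki67*, *Cenpf*, *Cenpe* and *Cdk4* are the widest.

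None of the genes that bring cells out of G1 had an unadjusted p under 0.05. Cyclin D1 (*Ccnd1*) was at 107, 110 and 116 FPKM in controls and 115, 108 and 119 in mutants, with a log2 difference of 0.035 (SE 0.079, 95% interval -0.15 to 0.22). Cyclin D2 (*Ccnd2*) was at 130, 102 and 117 FPKM in controls and 113, 118 and 121 in mutants (0.020, interval -0.22 to 0.26). For cyclin D3 (*Ccnd3*, mean 124 FPKM) the difference was -0.060. The 3 D cyclins were thus at nearly equal levels and overlapped between groups, and their intervals leave out a change of 0.5 on the log2 scale in either direction.

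Their kinase *Cdk4* was at 641, 983 and 1096 FPKM in controls and 623, 1045 and 1156 in mutants. Both first replicates were far below the other 4 samples, and because of this spread the difference of 0.040 had an interval from -0.64 to 0.72. With the replicate number as a block the interval of *Cdk4* narrowed to -0.11 to 0.19. Of the cyclin E genes, *Ccne1* (mean 26.5 FPKM) differed by -0.080 and *Ccne2* (16.6) by -0.039. Their kinase *Cdk2* (43.5) differed by -0.066 and was the lower of the pair in all 3 replicate numbers. An exon of *Pmel* overlaps *Cdk2* on the opposite strand. The factor *E2f1*, a driver and also a target of E2F transcription, was at 19.4, 14.9 and 15.8 FPKM in controls and 16.8, 15.5 and 15.9 in mutants (-0.044, interval -0.30 to 0.21). Control 1 was the highest and mutant 1 the next, both above the other 4 samples.

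The origin licensing and helicase genes were likewise close. *Mcm2*, a subunit of the MCM2-7 helicase, was at 64.7, 71.7 and 79.1 FPKM in controls and 65.5, 78.2 and 83.2 in mutants. Its log2 difference was 0.070 (SE 0.12, interval -0.21 to 0.35), and the mutant was slightly higher in each replicate number while the groups overlapped. The other subunits differed by -0.036 (*Mcm4*) to 0.062 (*Mcm7*), with mean levels between 62.3 FPKM (*Mcm4*) and 131 FPKM (*Mcm7*). Among the loading factors, *Cdt1* (mean 27.2 FPKM) had the lowest difference of the replication genes, -0.096 (interval -0.36 to 0.16), and was lower in all 3 replicate numbers, while *Cdc6* (14.5) differed by 0.0080. Of the factors that complete the active helicase, *Gins1* (34.0) had the highest difference, 0.10 (interval -0.16 to 0.37), *Cdc45* (24.5) differed by 0.057 and *Gins2* (33.0) by -0.011.

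*Pcna* was at 202, 182 and 199 FPKM in controls and 178, 198 and 212 in mutants (0.012, interval -0.22 to 0.24). *Rrm2*, the S phase subunit of ribonucleotide reductase, which makes deoxynucleotides, was at 146, 117 and 139 FPKM in controls and 130, 134 and 150 in mutants (0.043, interval -0.21 to 0.30). In both genes the mutant was lower in replicate 1 and higher in replicates 2 and 3. The larger subunit *Rrm1* (88.6 FPKM) differed by 0.057 and thymidylate synthase *Tyms* (95.4) by -0.047. Over the 23 replication genes tested, 12 were higher and 11 lower, with a median of 0.0080 and a smallest unadjusted p of 0.361.

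Of the 7 mitotic cyclins and kinases, none had an unadjusted p under 0.05 without the block. Cyclin B1 (*Ccnb1*), the partner of CDK1, was at 79.9, 86.8 and 99.1 FPKM in controls and 77.4, 96.3 and 107 in mutants (0.071, interval -0.26 to 0.40). *Cdk1* was at 140, 188 and 215 FPKM in controls and 130, 200 and 210 in mutants (-0.017, interval -0.54 to 0.51), with both first replicates below the rest. *Aurkb*, the kinase of the chromosomal passenger complex, was at 51.3, 46.2 and 50.2 FPKM in controls and 42.5, 50.2 and 53.1 in mutants (-0.024, interval -0.26 to 0.22), and only mutant 1 stood below the others. *Ccnb2* (59.3 FPKM) differed by 0.056, *Ccna2* (89.1), which acts in S phase as well as G2, by 0.0091, and the spindle pole kinase *Aurka* (50.5) by 0.012.

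*Plk1*, a kinase of mitotic entry and spindle assembly, was at 49.9, 46.3 and 51.8 FPKM in controls and 53.6, 50.4 and 57.2 in mutants. The mutant was higher in each replicate number, by 0.10, 0.12 and 0.14 on the log2 scale, but mutant 2 lay inside the control range. The difference of 0.12 had an SE of 0.083 and an unadjusted p of 0.189, which became 0.0451 with the replicate number as a block (adjusted p = 0.817, limma).

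*Cdc20*, the activator of the anaphase-promoting complex, was at 83.9, 80.9 and 88.6 FPKM in controls and 87.9, 96.4 and 103 in mutants. Mutants 2 and 3 were above all controls and mutant 1 was between controls 1 and 3. Its difference was the highest of the 46 genes at 0.17 (SE 0.087, interval -0.03 to 0.38, unadjusted p = 0.0848, limma), and 0.065, 0.25 and 0.21 in replicate numbers 1, 2 and 3. With the block the unadjusted p was 0.0215 and the adjusted p 0.809 (limma). An exon of *Elovl1* overlaps *Cdc20* on the opposite strand in the annotation, and how the counting step treated strand is not given in the sources used here.

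Among the checkpoint and kinetochore genes, the passenger protein *Birc5* (survivin) was at 96.9, 107 and 120 FPKM in controls and 94.7, 115 and 124 in mutants (0.039, interval -0.27 to 0.34). The checkpoint kinase *Bub1* (32.7 FPKM) differed by 0.018 and its relative *Bub1b* (48.2) by 0.046. The centromeric histone *Cenpa* (105) differed by 0.026, the kinetochore motor *Cenpe* (17.5) by -0.030 and *Cenpf* (16.5) by 0.079. With *Cdc20* included, the mutant mean was the higher in 6 of these 7 genes, each with an interval that includes 0.

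*Anln* encodes anillin, a scaffold of the cytokinetic ring. It was at 16.1, 17.7 and 16.3 FPKM in controls and 15.3, 14.2 and 15.4 in mutants, the only cell cycle gene whose groups did not overlap. The log2 difference was -0.14 (SE 0.077, interval -0.33 to 0.04), with an exact permutation p of 0.1, the smallest that 3 samples against 3 allow. The spindle motors *Kif11* (41.6 FPKM), *Kif20a* (42.7) and *Kif23* (24.9) differed by -0.038, 0.063 and 0.038. The spindle midzone protein *Prc1* (58.6) and the RhoA activator *Ect2* (29.5) differed by 0.063 and 0.029.

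*Mki67*, which encodes the proliferation antigen Ki-67, was at 22.6, 52.0 and 49.1 FPKM in controls and 27.2, 43.4 and 48.6 in mutants. Both first replicates were far below the other 4 samples, and the mutant was higher in replicate number 1 (by 0.25 on the log2 scale), lower in number 2 (-0.26) and nearly level in number 3 (-0.013). The group difference was -0.0052, but with an interval from -0.82 to 0.81 a sizeable change either way cannot be told from none. With the replicate number as a block the interval was -0.25 to 0.24. *Top2a*, the topoisomerase that untangles sister chromatids, was at 130, 189 and 194 FPKM in controls and 132, 172 and 200 in mutants (-0.025, interval -0.51 to 0.46), again with both first replicates low.

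*Depdc1a* encodes a DEP domain protein of proliferating cells. It was at 16.0, 18.3 and 18.5 FPKM in controls and 13.6, 13.6 and 16.1 in mutants. Mutants 1 and 2 were below all controls, and mutant 3 was level with control 1, so the groups touched. The mutant mean was 81.9% of the control mean, the log2 difference was -0.27 (SE 0.099, interval -0.51 to -0.04) and the differences within replicate numbers 1, 2 and 3 were -0.22, -0.40 and -0.19. The unadjusted p was 0.0278, the adjusted p was 1 (limma), and the adjusted p stayed between 0.409 and 1 over all alternatives. Without control 2, control 3, mutant 1 or mutant 2 the unadjusted p rose to 0.0823, 0.0960, 0.0782 and 0.0923 (limma). With the Y-linked genes as a covariate the difference was -0.12 and its unadjusted p 0.378 (limma). In that fit mutant 3 is the only mutant without Y-linked expression.

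Replication and mitotic genes were then compared as groups. The median log2 difference of the 23 mitotic genes was 0.026 (15 higher, 8 lower) beside 0.0080 for the replication genes. Without any 1 sample these medians ranged from -0.058 (without mutant 3) to 0.14 (without mutant 1) for mitosis and from -0.055 (without control 1) to 0.080 (without mutant 1) for replication, and with the Y-linked covariate they were 0.24 and 0.14. Relative to the control mean, the mean log2 level of the replication genes was -0.084, -0.00065 and 0.085 in controls and -0.14, 0.033 and 0.11 in mutants. The mitotic genes were at -0.18, 0.046 and 0.13 in controls and -0.20, 0.047 and 0.20 in mutants. The mitotic mean minus the replication mean was -0.094, 0.047 and 0.047 in controls and -0.061, 0.014 and 0.083 in mutants, so the balance of the phases overlapped between groups. In both phases the SD among the samples of 1 genotype (0.085 and 0.13 for replication, 0.16 and 0.20 for mitosis) exceeded the difference between the genotype means (0.00061 and 0.013), and mutant 3 was the highest sample in 27 of the 47 genes, against 23% of all genes tested.

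**Figure D4:**
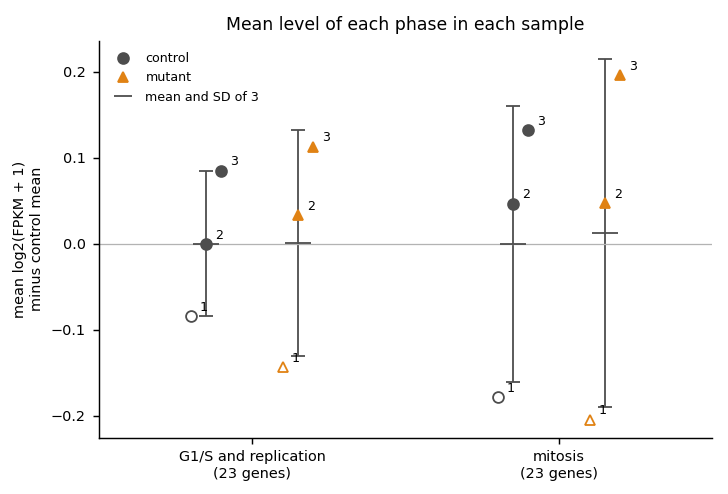
Points give the mean log2(FPKM + 1) of the 23 replication genes and the 23 mitotic genes tested in each control (grey circles) and mutant (orange triangles), relative to the control mean, with the replicate number beside each point, first replicates drawn open, and lines for the mean and SD of the 3 samples. In both groups and both phases the first replicate lies lowest, at -0.18 and -0.20 for mitosis, while the group means differ by 0.013.

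The samples differed more by replicate number than by genotype in these genes. In 29 of 46 genes (63.0%) both first replicates were below all other samples, against 34.7% of all genes, and in 5 (*Ccne2*, *E2f1*, *Cdt1*, *Ccna2* and *Cenpa*; 10.9%) both were above, against 18.4%. The first held for 16 of 23 mitotic genes (69.6%) and 13 of 23 replication genes (56.5%), among them 9 of the 11 origin licensing and helicase genes and 5 of the 6 genes of spindle motors and cytokinesis. The genes furthest down were picked after their values were seen. They were *Mki67* at 51.6% of the mean of the other samples, *Cenpf* at 51.6% (9.61 and 10.6 FPKM against 19.0 to 20.2), *Cenpe* at 56.6% (11.2 and 11.9 against 17.2 to 22.4), *Cdk4* at 59.1%, *Cdk1* at 66.5% and *Top2a* at 69.3%. In the mean of the log2 values, the median gene of the 46 was 0.22 lower in the first replicates, and the median of all genes 0.054 lower.

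Within the mitotic genes this drop went with transcript length. Across the 23 genes, the first-replicate difference and the log2 length of the longest annotated transcript had a Pearson r of -0.72 and a Spearman rho of -0.60. Both are a description across genes that share the same 6 libraries. The longest mitotic genes, *Cenpf* (11130 bases, -0.89), *Mki67* (10061, -0.93) and *Cenpe* (7910, -0.77), are also the mitotic genes furthest down, picked above after their values were seen. The next longest was *Top2a* at 5221 bases (-0.52). The relation without these genes was not computed. Across the 23 replication genes r was 0.10, and across 10005 expressed genes with a length it was -0.030. *Mki67* and *Cenpf* are the only 2 of the 46 tested genes with a transcript over 8000 bases, and the 545 expressed genes of that length had a median difference of -0.19. *Cdk6*, which was below the filter, has the longest transcript of the 47 genes at 11525 bases, and its first replicates were at 92.4% of the other samples, with overlap. *Cdk4*, at a transcript length between 2000 and 3000 bases, was among the most reduced without being long. Both first replicates were below all other samples in 34.7% of all genes. Among marker lists this held for 6 of 7 endothelial, 5 of 10 epithelial, 4 of 8 muscle and 3 of 7 macrophage markers. It held for 1 of 12 cranial mesenchyme and 1 of 8 forebrain progenitor markers. Of neuronal (12), erythroid (10), cartilage and bone (8) and choroid plexus (6) markers it held for 0. The part of cell composition and of library preparation in this pattern was not tested.

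**Figure D5:**
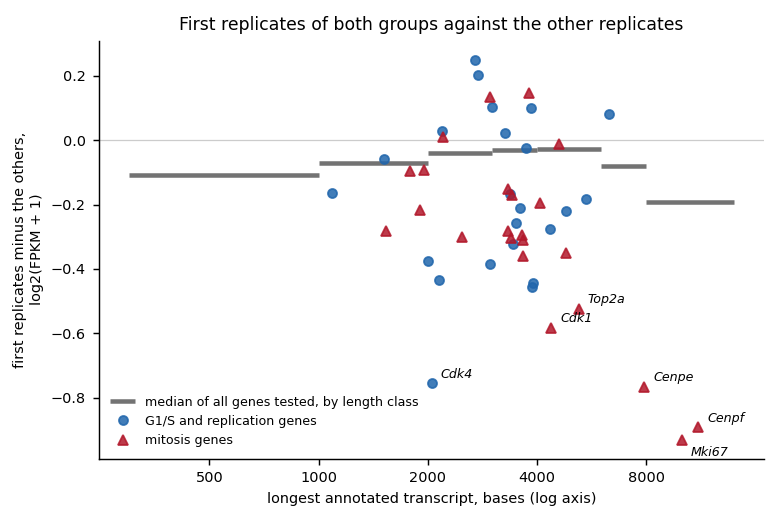
Points give, for each replication gene (blue circles) and mitotic gene (red triangles), the mean log2(FPKM + 1) of the 2 first replicates minus that of the other 4 samples, against the length of the longest annotated transcript (log axis), and grey lines give the median of all expressed genes in each length class. The longest mitotic genes lie lowest, down to -0.93 for *Mki67*, while the grey lines stay above -0.20.

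Of 121 other genes of the pathway 118 were tested. Among them none had an unadjusted p under 0.05 in either direction (smallest 0.106, limma), and their median log2 difference was 0.0025, with 60 higher and 58 lower. With the replicate number as a block, 3 of 118 were lower before adjustment (2.54%) and 0 higher, against 3.7% and 2.31% of all genes. They were *Orc4*, of the origin recognition complex, at 35.0, 32.2 and 38.0 FPKM in controls and 31.8, 28.8 and 34.2 in mutants, *Cdc7*, the kinase that fires origins, and *Pold1*, the catalytic subunit of DNA polymerase delta. *Cdc7* was at 20.8, 18.4 and 17.4 FPKM in controls and 17.9, 15.5 and 16.4 in mutants. *Pold1* was at 39.3, 30.2 and 30.4 FPKM in controls and 35.4, 26.3 and 28.0 in mutants, and all 3 genes had an adjusted p of 0.809 (limma). Both first replicates were below all other samples in 24 of 41 other replication genes (58.5%) and 33 of 54 other mitotic genes (61.1%), against 34.7% of all genes. *Lin54*, a subunit of the MuvB complex, was the only one of the 118 genes whose groups did not overlap (8.25, 7.98 and 8.28 FPKM in controls, 7.32, 7.92 and 7.81 in mutants), or 0.847% against 2.37% of all genes on that side.

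Of the CDK inhibitors, which hold cells in G1, 5 of 7 were expressed above the filter and none had an unadjusted p under 0.05. *Cdkn1c* was the highest, at 369, 428 and 361 FPKM in controls and 386, 346 and 324 in mutants, with a log2 difference of -0.13 and overlapping groups. *Cdkn1b* was at 34.7, 22.1 and 23.9 FPKM in controls and 34.5, 27.2 and 25.1 in mutants, so both of its first replicates were above the other samples. Its direction across replicate numbers was opposite to that of most cell cycle genes. The retinoblastoma gene *Rb1* (43.9, 33.0 and 31.5 FPKM in controls, 41.4, 27.3 and 32.7 in mutants) also had both first replicates above the other samples. Among the CDK inhibitors this held for 2 of 5 (40%, *Cdkn1b* and *Cdkn2d*), against 18.4% of all genes. In the list of 18 retinoblastoma family, E2F and MYC factors it held for 2 (11.1%), *Rb1* and *Foxm1*. In 5 of these 18 (27.8%), among them the *Rb1* relative *Rbl2*, both first replicates were below the other samples, against 34.7% of all genes.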

How the data were processed

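RNA-Seq of poly(A)+ RNA was available for 3 control and 3 mutant samples. The authors made stranded paired-end libraries, aligned reads to GRCm38 with STAR and named Cuffdiff for expression; processing notes also list FastQC 0.11.4. The authors deposited FPKM per gene and sample, without counts, so the number of reads behind each value is unknown. The annotation and the step that made the table are not given in the sources used here.

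The 47 genes and all lists were chosen with earlier results of these data known. Genes with FPKM over 5 in all controls or all mutants were kept (10061), and log2(FPKM + 1) was fitted with limma 3.58.1 in R 4.3.3 (intensity trend, no covariate, Benjamini-Hochberg over all genes tested). The pseudocount of 1 understates changes of low genes. Samples are separate biological replicates per the methods. Of the 47 genes, values in each sample are printed for a set list (markers of each phase), for genes with an unadjusted p under 0.05 with or without the block, and for genes without overlap. Others were named after their values were seen. The fit was tested on simulated data with independent noise, the same spread in every gene and planted changes larger than any difference of the 47 genes. It therefore does not bear on deviations shared by replicate number or on differences as small as those reported here.

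Same-numbered samples correlated at 0.64, 0.26 and 0.51 in their deviations from group means, so the numbers were taken to pair the samples. Samples with different numbers correlated at 0.40 and 0.23 among replicates 2 and 3 and between -0.68 and -0.37 with a first replicate, so the pairing mainly sets the first replicates apart. It comes from the values, since no source ties litters to numbers. Alternatives were a pseudocount of 0.1, median ratio scaling, quantile normalization, a replicate block, an FPKM filter of 1, no filter, no trend, a Y-linked covariate, a term for first replicates, replicates 2 and 3 only, and each sample left out. Exons of 12 of the 47 genes overlap a protein-coding gene on the opposite strand in GENCODE M21, so their values are uncertain if strand was ignored.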

Additional observations from a re-analysis of the deposited data

How the results depend on the processing

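The count of cell cycle genes with an adjusted p under 0.05 was 0 under every alternative (limma). The count with an unadjusted p under 0.05 was 1, and became 3 with the replicate block, 2 with a term for the first replicates, 2 with replicates 2 and 3 only and 0 with the Y-linked covariate. With 1 sample left out it ranged from 0 to 1. It was 0 without control replicate 2, control replicate 3 or mutant replicate 2, and without mutant replicate 1 the gene was *Cdc20* in place of *Depdc1a*. Among the 47 genes the replicate block changed no other call. The median log2 difference moved to 0.14 for the replication genes and 0.24 for the mitotic genes with the Y-linked covariate, when the median of all genes was 0.035. With 1 sample left out these medians ranged from -0.055 to 0.080 and from -0.058 to 0.14, so neither has a stable direction, and quantile normalization gave -0.012 for replication. Of 736 values of single genes under alternatives, 699 stayed within 1 control SD. The replicate block, the term for first replicates, the other filters and the fit without trend cannot change a log2 difference here. Their values are part of the 699 by construction. With 1 sample left out, the sign changed in 4 of 46 genes (without mutant replicate 2) to 22 (without mutant replicate 3). It changed in 20 without control replicate 1. Without counts the number of reads behind each value is unknown, which limits what the low genes, such as *Cdk6*, can show.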
